A study of Mus musculus with 3 samples.

Results

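The lung transcriptome of mice exposed to an allergen together with airborne particles was set against that of control lung, with 1 RNA-seq library on each side. A gene entered the comparison when it had at least 1 FPKM (fragments counted on a gene, scaled by transcript length and by sequencing depth) in either library, which held for 13877 of the 23183 genes with a value. All mice were female BALB/c, aged 10 weeks in one label and 5 to 6 weeks in another, with 5 mice assigned to each group. The control mice carry no other description than control, and no vehicle is named for them. The OVA+PM10 mice received PM10, a certified dust reference material, at 100 or 200 µg into the nose 4 times over 2 weeks. They were also sensitised with 20 µg of ovalbumin (OVA, an egg-white protein) in aluminium hydroxide by injection into the peritoneum on day 0 or 1, depending on the label, and on day 14. An intranasal OVA challenge followed on days 21, 22 and 23, and lungs were taken 2 days after the last. The remaining library, from mice given PM10 without OVA, is printed for reference, and where 3 values follow each other they are those of control, PM10 and OVA+PM10 lung. Neither the dose sequenced nor any pooling of mice is given in the sources used here. Allergen and particles were given together, and a lung with allergen alone was not analysed here, so their shares in the OVA+PM10 library cannot be told apart.

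Ovalbumin with an aluminium salt is a standard way to make mice allergic. Helper T cells and innate lymphoid cells then make interleukin-4, interleukin-5 and interleukin-13 when the allergen reaches the airway. Interleukin-13 acts through the transcription factor STAT6 on airway epithelium, where secretory cells turn into mucus-filled goblet cells, and on macrophages, which take up a program called alternative activation. Interleukin-5 and the eotaxin chemokines draw eosinophils, and B cells mature into antibody-secreting plasma cells.

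The OVA+PM10 library held 1381 genes at least 2-fold above control, or 9.95% of those compared, and 1204 at least 2-fold below it, or 8.68%. The other 11292 lay within 2-fold, and the median log2 ratio of FPKM + 1 was -0.0017. Changes of at least 16-fold were found in 28 genes on the higher side and in 101 on the lower side. With 1 library a group these counts compare libraries, no test between groups was possible, and the spread between mice is unknown. Every 2-fold statement refers to the ratio of FPKM + 1, which understates differences at low levels. Gene lists below are described by how many measured members passed 2-fold in each direction and by their median, against these shares and this median for all genes. A member under 1 FPKM in control lung entered only through the OVA+PM10 library, which favours counts of higher genes. The reverse holds for members under 1 FPKM in the OVA+PM10 library. RNA was taken from lung homogenate, so that fewer cells of a type and less RNA per cell cannot be told apart.

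**Figure D1:**
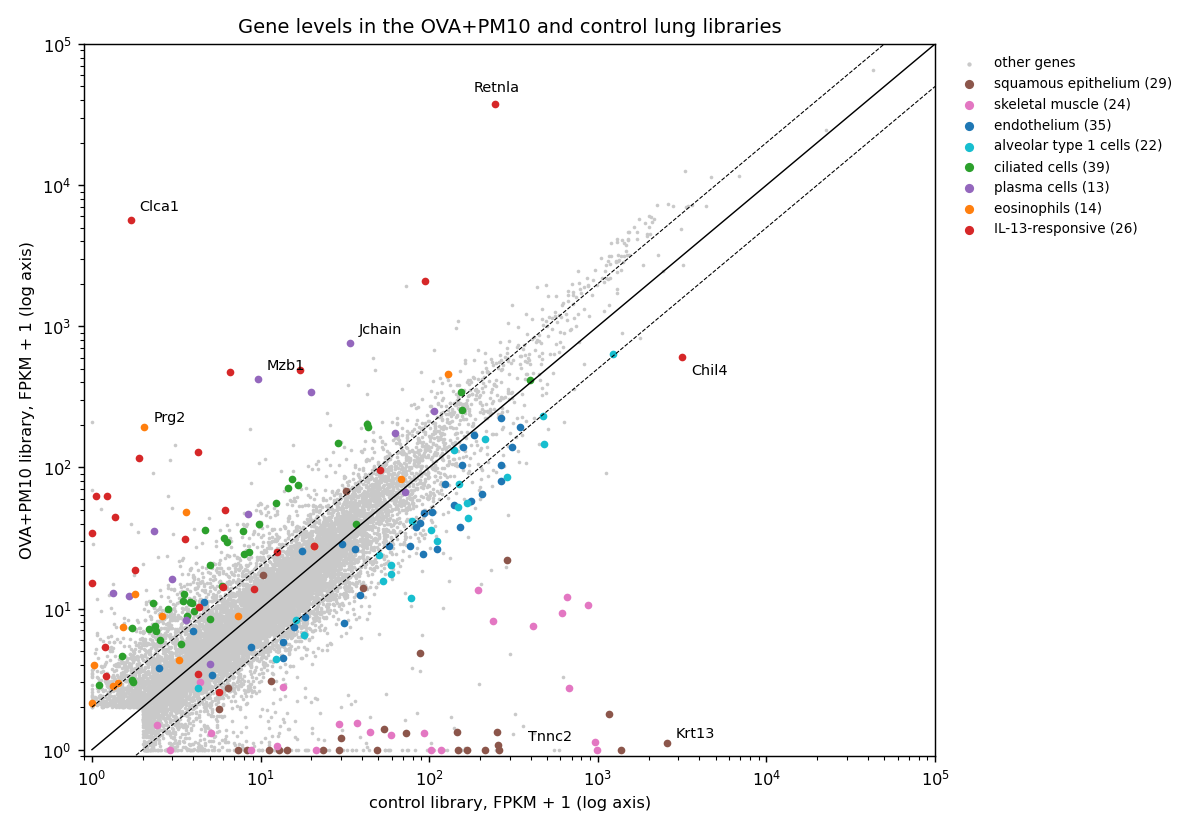
Level of each compared gene in the control library (horizontal, FPKM + 1, log axis) and in the OVA+PM10 library (vertical, same unit), with the solid line at equal levels and dashed lines at 2-fold. Clca1 and Retnla stood farthest above the line among abundant genes, and squamous epithelium and skeletal muscle genes lay along the bottom edge.

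Lung identity was plain in every library: surfactant protein C, Sftpc, had 22645, 56646 and 24439 FPKM, and the club cell protein Scgb1a1 had 42979, 50391 and 65012. The control library also held squamous epithelium and skeletal muscle genes, at 2.47% of its summed FPKM, that were nearly missing from both others. The smallest steps between values pointed to depths, in units of 1000000 reads, of about 19.7 in control lung, 13 with PM10 and 15.0 with OVA+PM10. Scaling both libraries to the same summed FPKM would move the median of all genes to -0.58 and give 643 higher and 3458 lower genes, and every direction given here is relative to the median gene. Ratios also followed transcript length. Among 10 classes of equal size, genes whose longest transcript had 126 to 1291 bases stood at a median of 0.615 on the log2 scale, against -0.35 for 6625 bases or more. Removing this trend with a running median gave 1041 higher and 1151 lower genes.

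**Figure D2:**
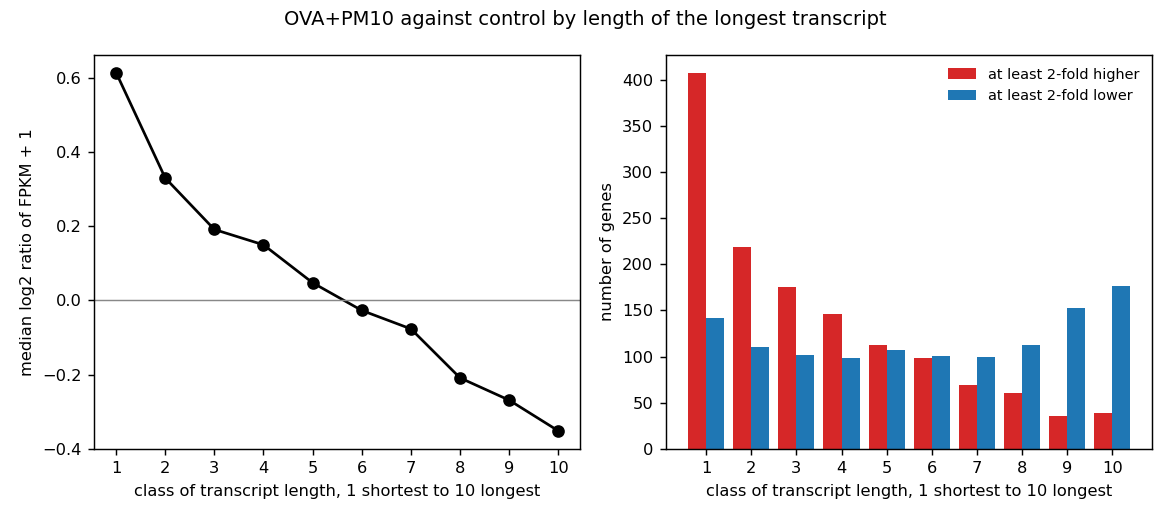
Genes compared, divided into 10 classes by the length of their longest transcript, with the median log2 ratio of FPKM + 1 of OVA+PM10 against control (left) and the number of genes at least 2-fold higher or lower (right). The median declines from 0.615 in the shortest class to -0.35 in the longest, and higher genes go from 407 to 39 while lower genes go from 142 to 176.

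The 20 genes with the highest ratios among those with at least 5 FPKM were led by products of mucous airway cells, alternatively activated macrophages, eosinophils, neutrophils and plasma cells. In order these were Clca1, Retnla, Prg2, Tff2, Atp6v0c-ps2, Fcgbp, Muc5ac, Itln1, Ngp, Fxyd4, Mzb1, Mmp12, Camp, Tff1, Slc26a4, Agr2, Rnase2a, Capn9, Chia1 and AA467197. Retnla, a resistin-like protein secreted by macrophages and airway epithelium, had 245 FPKM in control lung, 1611 with PM10 and 37463 with OVA+PM10 (log2 ratio 7.25). It went from rank 280 by FPKM in the control library and 116 in the PM10 library to rank 2 in the OVA+PM10 library, behind Scgb1a1. Retnla alone made up 4.38% of that library's summed FPKM, against 0.0448% in the control library. Clca1, a secreted protease of goblet cell mucus, had 0.695, 2.24 and 5628 FPKM (log2 ratio 11.70) and went from rank 13803 to rank 18. In GRCm38, with the GENCODE M21 annotation, Clca1 lies on the minus strand at chr3:145003817-145032776 and Retnla on the plus strand at chr16:48842551-48844461. Atp6v0c-ps2 is a processed pseudogene that shares sequence with Atp6v0c, so its value is uncertain.

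Part of these genes were above control with particles alone as well. With PM10 alone, against the same control library, 9 of the 20 were also higher by at least 2-fold, 8 lay within 2-fold and 3 were lower. The share of all genes past 2-fold with PM10 alone was not counted, so these counts have no background. Both ratios also share the control library by which these genes were picked, so the overlap was partly fixed in advance. Among the 9, Camp (1.92, 6.10 and 112 FPKM), Fxyd4 (0.128, 4.13 and 49.3 FPKM) and Mzb1 (8.62, 21.5 and 420 FPKM) stayed far below their OVA+PM10 level. Mmp12, AA467197 and Atp6v0c-ps2 did not. Mmp12, the macrophage elastase, had 1.30 FPKM in control lung, 136 with PM10 and 90.9 with OVA+PM10. AA467197, a transcript that hosts a microRNA, had 0.713, 48.4 and 39.0 FPKM. Both were thus at least as high with particles alone. Prg2, by contrast, had 1.04 FPKM in control lung, was listed at 0 with PM10 and had 191 with OVA+PM10.

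STAT6 binds paired half-sites with a spacing of its own, TTC and GAA with 4 bases of any kind between them, which reads the same on both strands. In RefSeq promoters of GRCm38.p6, from 250 bases before to 50 after each start, 8.01% of 27025 gene symbols held this motif in at least 1 window, and 6.39% of the 10509 compared genes with a promoter entry did. Among the 20 highest genes 13 had an entry, and Retnla and Capn9 held the motif. In the list of interleukin-13-responsive genes 19 had an entry, and Retnla, Pdcd1lg2 and Fcer2a held it, while Epx and Il5ra did so in the eosinophil list. The shorter spacing with 3 bases between the half-sites, used by other STAT factors, was found in 0 of the 13 and in 4 of the 19, against 8.50% of compared genes. The motif was present in 7.53% of the 1023 higher genes with an entry, in 1 of 12 plasma cell genes and in 1 of 40 cell cycle genes. The stretches around 5 of the matches are shown as examples from the 20 highest, the interleukin-13-responsive and the eosinophil genes, with the motif in capitals and the strand of the gene read 5′ to 3′. A match describes letters and not binding.
Retnla, chr16:48842439-48842498, plus strand: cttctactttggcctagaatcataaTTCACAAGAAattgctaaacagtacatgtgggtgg
Capn9, chr8:124575942-124576001, plus strand: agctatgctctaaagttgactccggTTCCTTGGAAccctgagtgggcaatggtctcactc
Pdcd1lg2, chr19:29410812-29410871, plus strand: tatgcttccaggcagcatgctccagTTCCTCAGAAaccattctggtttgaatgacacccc
Fcer2a, chr8:3690995-3691054, minus strand: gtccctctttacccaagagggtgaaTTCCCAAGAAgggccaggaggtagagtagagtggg
Epx, chr11:87875517-87875566, minus strand: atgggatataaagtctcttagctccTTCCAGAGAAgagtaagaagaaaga
The matches of Retnla, Capn9, Pdcd1lg2 and Fcer2a begin 145, 144, 82 and 168 bases before the start that RefSeq gives, which can differ from that of GENCODE, and that of Epx begins 5 bases before it. Capn9, a calpain protease of mucosal epithelium, had 0.020 FPKM in control lung, was listed at 0 with PM10 and had 27.6 with OVA+PM10. Pdcd1lg2, a ligand of the checkpoint receptor PD-1, had 0.188, 0.212 and 4.31 FPKM. Fcer2a, the low-affinity IgE receptor CD23 of B cells, had 8.10, 5.92 and 12.8 FPKM. Capn9 and Pdcd1lg2 were thus near the floor in both other libraries, whereas Fcer2a differed by less than 2-fold.

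Interleukin-13-responsive genes as a list showed the highest median of all lists. Of 26 measured members 20 were at least 2-fold higher and 2 lower (median 3.26), and their summed FPKM was 0.666% of the control library, 0.179% of the PM10 library and 5.55% of the OVA+PM10 library. Among the inducers of the program, Spdef, the transcription factor that drives goblet cell fate, had 0.802 FPKM in control lung, 1.09 with PM10 and 17.7 with OVA+PM10. Foxa3, a forkhead factor acting beside it, had 0.212, 0.482 and 2.34 FPKM. Arg1, arginase of alternatively activated macrophages, had 5.12, 1.5 and 48.8 FPKM. Each of these was highest in the OVA+PM10 library and low in the others. The 2 lower members were Chil4 (3160 against 602 FPKM) and Serpinb2 (4.63 against 1.58 FPKM), a serpin of epithelium and macrophages. Chil4 was nearly absent from the PM10 library at 0.104 FPKM, and reads of Chil4 and its near-identical neighbour Chil3 may not have been divided correctly between them. The intracellular brakes on cytokine signalling in the list, Socs1 (4.99 against 13.2 FPKM) and Cish (11.4 against 24.3 FPKM), were slightly more than 2-fold higher.

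**Figure D3:**
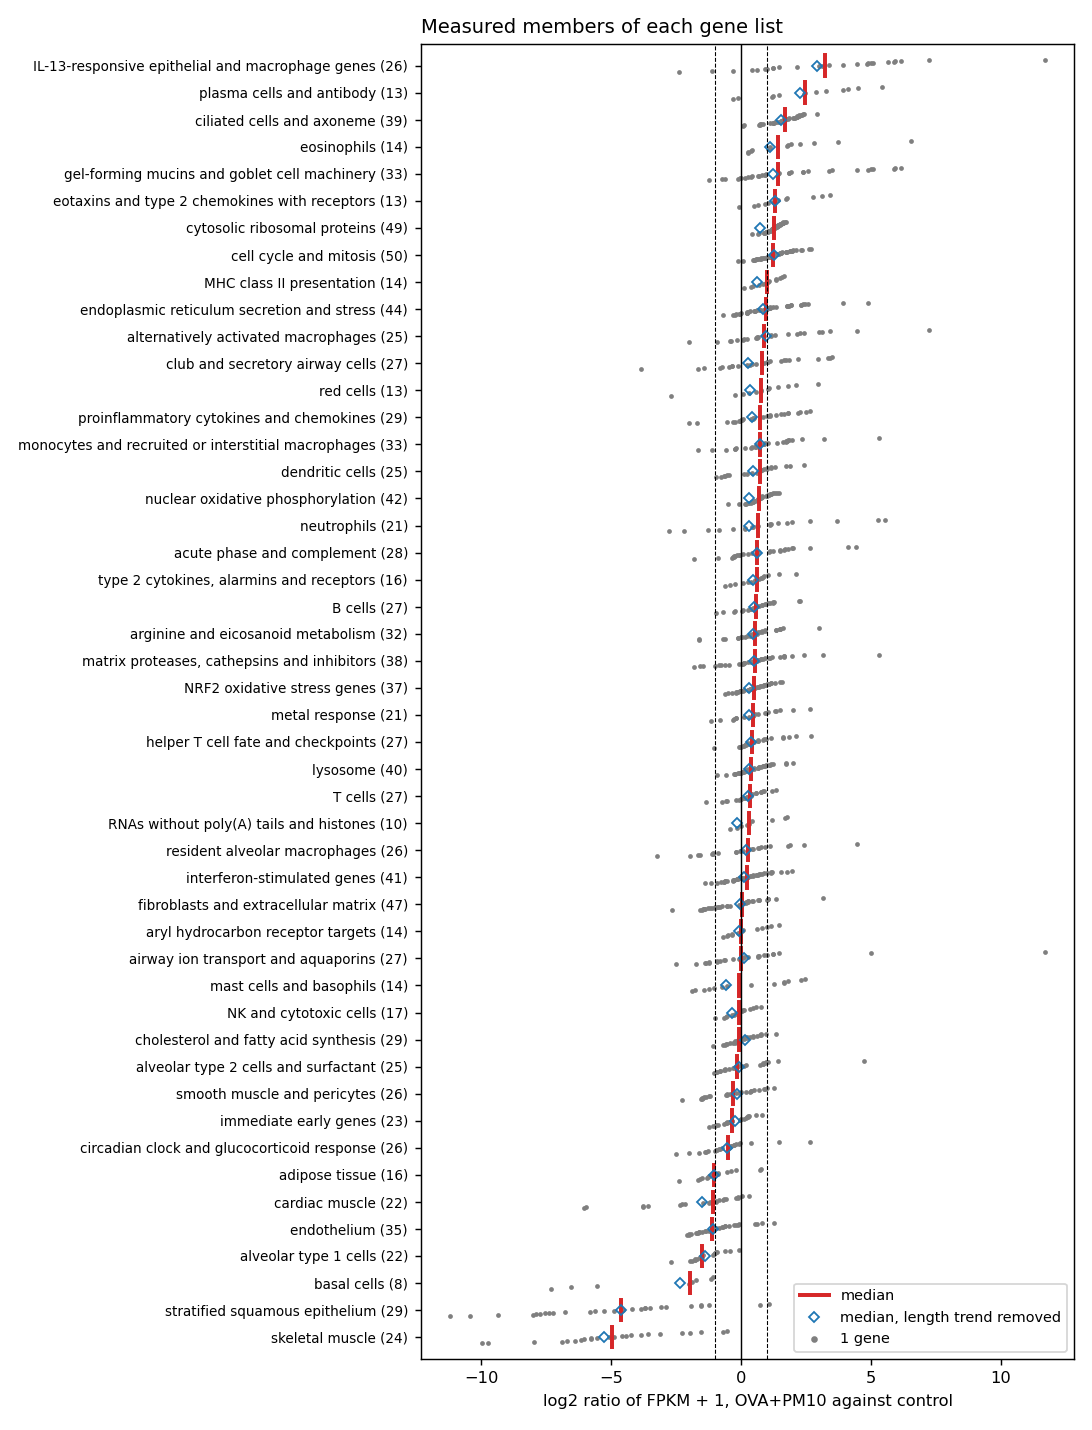
Log2 ratio of FPKM + 1, OVA+PM10 against control, of each measured member (grey) of 48 gene lists, with the number of members in brackets, the list median (red) and the median after removing the trend over transcript length (blue diamond); dashed lines mark 2-fold. Interleukin-13-responsive and plasma cell genes top the order with medians of 3.26 and 2.48, and squamous epithelium and skeletal muscle genes end it with -4.63 and -4.97.

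Mucins and goblet cell machinery were higher in part. Of 33 measured members 17 passed 2-fold on the higher side and 1 on the lower (median 1.42, or 0.62 with a pseudocount of 5 FPKM), and 8 members belong to the interleukin-13-responsive list as well. Ern2, the endoplasmic reticulum stress sensor particular to mucous cells, had 0.078 FPKM in control lung, 0.049 with PM10 and 5.47 with OVA+PM10. Creb3l1 and Creb3l4, membrane-bound transcription factors of secretory cells, had 7.96 against 32.8 and 1.19 against 10.4 FPKM. Of the enzymes that begin mucin glycosylation, Galnt12 had 2.02 against 9.77 FPKM while Galnt4 (7.17 against 6.51) and Galnt7 (3.99 against 4.99) lay within 2-fold. Gcnt3, which builds the branched core of mucin sugars, had 0.021 against 2.70 FPKM. Components of granule release, Vamp8 (448 against 610 FPKM) and Stxbp2 (21.4 against 35.5 FPKM), lay within 2-fold. Muc1 and Muc4, membrane mucins, had 53.7 against 146 and 1.08 against 9.80 FPKM. Muc1 was also high in the PM10 library at 198 FPKM, and Muc4 was not, at 0.552 FPKM.

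Ion transport genes went both ways, with 6 of 27 at least 2-fold higher and 6 lower. Besides Clca1 and the anion exchanger Slc26a4, the glucose and sodium transporter Slc5a1 (3.34 against 9.21 FPKM) and the amino acid transporter Slc6a20a (0.410 against 2.89 FPKM) were higher. Slc26a9, a chloride transporter, had 5.32 FPKM in control lung, 3.58 with PM10 and 1.67 with OVA+PM10. Scnn1g, a subunit of the epithelial sodium channel, had 33.7, 15.2 and 12.2 FPKM, and Aqp1, the water channel of lung capillaries, 333, 388 and 130 FPKM. The chloride channels Cftr (4.85 against 2.78 FPKM) and Ano1 (17.4 against 28.4 FPKM) lay within 2-fold, as did the cotransporter Slc12a2 at 26.7 FPKM in both. Fxyd4, a regulator of the sodium pump that stands outside the list, had 0.128, 4.13 and 49.3 FPKM.

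Type 2 cytokines themselves were scarce. Among 16 measured cytokines, alarmins and receptors 3 were at least 2-fold higher and 0 lower (median 0.62), and the 3 were Il4, Il13 and Il5ra. Il4 had 0.223 FPKM in control lung, 1.2 with PM10 and 4.28 with OVA+PM10, and Il13 had 0.130, 0 and 2.13. Il25, a further alarmin, was listed at 0 in every library. The receptor chains Il4ra (24.4 against 18.2 FPKM) and Il13ra1 (15.0 against 20.0 FPKM) and Stat6 (34.2 against 28.7 FPKM) lay within 2-fold. The receptors and Stat6 thus differed from control by less than the interleukin-13-responsive genes named above.

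Eosinophil genes were mostly higher, with 10 of 14 at least 2-fold above control and 0 below (median 1.44, or 1.12 with 8 higher after removal of the length trend and 0.51 with a pseudocount of 5 FPKM). Beside Prg2, the granule proteins Prg3 (0.529 against 6.4 FPKM) and Epx, eosinophil peroxidase (0.035 against 2.95 FPKM), were higher, and both were listed at 0 in the PM10 library. Cebpe, a transcription factor of granulocyte maturation, had 0.80 FPKM in control lung, 0.726 with PM10 and 11.8 with OVA+PM10. Gata1, needed for the eosinophil lineage, had 0.331, 0.441 and 1.80 FPKM. Prg3, Epx, Cebpe and Gata1, with Ear10 and Il5ra, were under 1 FPKM in control lung and entered only through the OVA+PM10 library. The count of higher members was thus partly fixed in advance. Ear6 and Rnase2a, eosinophil-associated ribonucleases, had 2.60, 0 and 47.2 and 16, 4.66 and 489 FPKM. The ribonucleases of this family are near-identical, so the division of reads among them is uncertain. Ear6, Prg2 and Cebpe were highest in the OVA+PM10 library and at or below control in the PM10 library. So was Rnase2a, which belongs to the interleukin-13-responsive list and is not counted among the 14 eosinophil genes. The 4 eosinophil genes within 2-fold of control were Ear1, Siglecf, Alox15 and Adgre4, with log2 ratios from 0.26 to 0.42.

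Mast cell and basophil genes went both ways. Of 14 measured, 6 were at least 2-fold higher and 5 lower, with a median of -0.06. Mcpt1 and Mcpt2, proteases of mucosal mast cells, had 0.159, 0.166 and 4.84 and 0.114, 0 and 5.13 FPKM. Tpsab1, a tryptase, had 0.927, 0 and 5.05 FPKM. Prss34 and Mcpt8, proteases of basophils, had 0.129, 0.067 and 2.93 and 0.347, 1.4 and 2.27 FPKM. In the other direction, Mcpt4, a protease of connective-tissue mast cells, had 8.35, 1.30 and 1.52 FPKM, the carboxypeptidase Cpa3 had 4.52, 0.546 and 1.37, and Tpsb2, a second tryptase, had 5.28, 0 and 2.08. The named proteases of mucosal mast cells and basophils were higher. Of those shared with or kept by connective-tissue mast cells, Tpsab1 was higher and Mcpt4, Cpa3 and Tpsb2 were lower. Cma1, a further protease, lay within 2-fold of control at 7.91, 9.95 and 4.36 FPKM. All the higher proteases named here were under 1 FPKM in control lung. They entered only through the OVA+PM10 library, so their direction was largely fixed in advance. The growth factor receptor Kit (38.6, 14.3 and 13.9 FPKM) and Gata2 (27.8, 16.4 and 7.39 FPKM) were lower as well, and both are also made by other lung cells. Mast cell proteases are close paralogs, so the division of reads among them is uncertain.

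Chemokines of type 2 inflammation were higher in part, with 9 of 13 genes of ligands and receptors at least 2-fold above control and 0 below (median 1.32). The 4 within 2-fold included ligands as well as receptors. On scaling to the same sum, where all genes have a median of -0.58, 5 of 13 were higher at a median of 0.78. The most abundant was Ccl8, a monocyte and eosinophil attractant, with 143 FPKM in control lung, 12.3 with PM10 and 972 with OVA+PM10. Ccl17 and Ccl22, ligands of CCR4, had 8.84, 203 and 106 and 4.82, 8.56 and 13.6 FPKM. Ccl1, ligand of CCR8, had 0.149, 0 and 2.86 FPKM. Their receptors on T cells, Ccr4 (0.635 against 1.32 FPKM) and Ccr8 (0.412 against 1.25 FPKM), lay within 2-fold, and the chemokine receptor Ccr1 (3.28 against 10.4 FPKM) did not. Ccl17 was thus highest with particles alone, and Ccl8, Ccl1 and Ccl24 (2.57, 2.33 and 30.3 FPKM) were highest with allergen and particles.

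**Figure D4:**
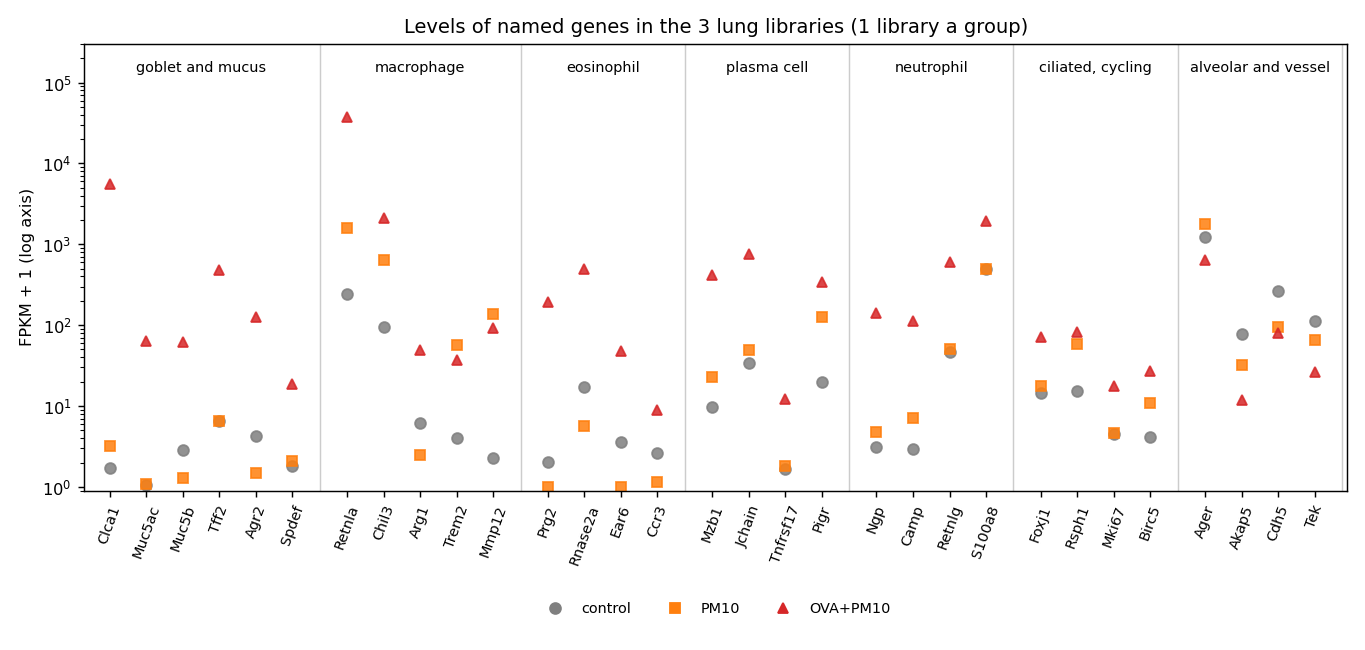
FPKM + 1 (log axis) of named genes in the control (grey circles), PM10 (orange squares) and OVA+PM10 (red triangles) libraries, 1 library a group, with a point at 1 for a gene listed at 0. Goblet cell, eosinophil and neutrophil genes are highest in the OVA+PM10 library, Mmp12 and Trem2 are highest in the PM10 library, and Akap5, Cdh5 and Tek are lowest in the OVA+PM10 library.

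Macrophage genes described more than 1 program. Of 25 genes of alternative activation 12 were at least 2-fold higher and 1 lower (median 0.89), and of 33 genes of monocytes and recruited macrophages 13 were higher and 2 lower (median 0.72). Trem2, a lipid receptor, had 3.05 FPKM in control lung, 56.5 with PM10 and 35.8 with OVA+PM10, and Gpnmb, a membrane glycoprotein of foamy macrophages, had 4.54, 76.3 and 17.3. Ctsk, cathepsin K, had 18.1, 207 and 101 FPKM. These stood between control and PM10 in the OVA+PM10 library. The complement subunits C1qa, C1qb and C1qc, made by tissue macrophages, had 80.6, 59.4 and 63.2 FPKM in the control library, 154, 67.9 and 100.0 in the PM10 library and 281, 207 and 223 in the OVA+PM10 library, so that all 3 were highest with allergen and particles. Irf4, a transcription factor of alternative activation that plasma cells and dendritic cells share, had 1.99, 1.74 and 15.2 FPKM. The canonical surface marker Mrc1 did not follow, at 32.2, 18.3 and 34.3 FPKM.

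Resident alveolar macrophage genes did not move as one, with 5 of 26 at least 2-fold higher and 7 lower (median 0.27). The scavenger receptor Marco had 7.36 FPKM in control lung, 13.1 with PM10 and 1.16 with OVA+PM10. Fabp1, a fatty-acid-binding protein of these cells, had 20.5, 32.1 and 1.28 FPKM, Fabp5 had 630, 401 and 209, and the lipid exporter Abcg1 had 17.6, 35.1 and 7.74. Each was lowest in the OVA+PM10 library. Siglecf (6.38, 7.97 and 7.86 FPKM) and Car4 (158, 341 and 138 FPKM) lay within 2-fold of control, whereas Itgax, which dendritic cells share, had 11.5, 31.8 and 45.8 FPKM. Interleukin-18, Il18, made by macrophages and epithelium, had 30.9, 28.1 and 7.05 FPKM.

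Neutrophil genes differed among themselves. In this list 10 of 21 were at least 2-fold higher and 3 lower (median 0.66). Ngp and Camp, granule proteins made while neutrophils mature, had 2.09 and 1.92 FPKM in the control library, 3.78 and 6.10 in the PM10 library and 142 and 112 in the OVA+PM10 library. Retnlg, a resistin-like protein of neutrophils, had 45.5, 49.4 and 597 FPKM, and S100a8, a calcium-binding alarmin, had 494, 499 and 1958. The receptors Cxcr2 (2.70, 4.31 and 3.08 FPKM) and Csf3r (4.67, 4.59 and 5.39 FPKM) lay within 2-fold. The 3 lower members were the decoy receptor Il1r2, at 4.84, 1.5 and 1.4 FPKM, and the protease inhibitors Stfa3 (10.00 against 0.596 FPKM) and BC100530 (24.8 against 4.69 FPKM). Among red cell genes, the band 3 gene Slc4a1 was higher too, with 1.81, 2.78 and 11.1 FPKM. Hemoglobin Hbb-b1 stood at 6842, 26747 and 11592 FPKM, so the abundant globins did not follow that order. The part of blood in the neutrophil values was not tested.

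Acute phase genes made in lung were higher in 13 of 28 cases and lower in 1 (median 0.63). Saa3, a serum amyloid of macrophages and epithelium, had 7.68 FPKM in control lung, 115 with PM10 and 185 with OVA+PM10, and Lcn2, lipocalin 2, had 106, 808 and 679. Both were high with particles alone too. Ceruloplasmin, Cp, and complement C3 were not, at 51.2, 49.8 and 207 and 128, 151 and 416 FPKM. Saa1, the liver-type serum amyloid, went the other way, with 4.53, 1.19 and 0.603 FPKM. Proinflammatory cytokines and chemokines were higher in 12 of 29 cases and lower in 2 (median 0.74). Ccl12 and Ccl2, monocyte attractants, had 7.02, 8.51 and 38.3 and 3.36, 4.21 and 14.5 FPKM, whereas Cxcl3, a neutrophil attractant, had 0.269, 16.7 and 4.75. Cxcl11, a ligand induced by interferon-γ, was lower, with 3.80, 0.099 and 0.470 FPKM.

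Genes of antibody-secreting cells were higher almost throughout. Of 13 measured plasma cell genes 11 lay at least 2-fold above control and 0 below. The list has 23 entries, and those without a value include the antibody heavy chains Igha and Ighg1. Derl3, Fkbp11 and Xbp1 belong to the endoplasmic reticulum list as well. Their median was 2.48, or 2.29 with the length trend removed, against 0.23 for the PM10 library. Mzb1, a chaperone of immunoglobulin assembly, had 8.62 FPKM in control lung, 21.5 with PM10 and 420 with OVA+PM10. Jchain, the joining chain of IgA and IgM, had 32.8, 48.6 and 766 FPKM, and Derl3, which clears misfolded proteins in plasma cells, had 1.34, 2.23 and 34.3. Tnfrsf17, the survival receptor BCMA, had 0.651, 0.789 and 11.3 FPKM. All 4 were above 10 times control in the OVA+PM10 library and within 3 times of it in the PM10 library. Pigr, the epithelial receptor that carries IgA and IgM into the airway, had 18.9, 124 and 342 FPKM. Prdm1, the factor that sets plasma cell fate, and Sdc1, a surface marker that epithelium shares, lay within 2-fold at 4.01 against 3.02 and 70.8 against 66.1 FPKM.

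B cell and antigen presentation genes were higher to a lesser degree. Among 27 B cell genes 7 lay at least 2-fold above control and 0 below (median 0.60), or 3 and 0 with the length trend removed. Pou2af1, a coactivator of B cells and plasma cells, had 7.16 FPKM in control lung, 6.08 with PM10 and 37.1 with OVA+PM10. Ms4a1, which encodes CD20 of mature B cells, had 17.8, 14.8 and 24.8. Of 14 genes of class II presentation 7 were higher and 0 lower (median 1.0), and H2-Aa had 467, 1375 and 1325 FPKM and Cd74 had 983, 629 and 1947. With the length trend removed 4 of the 14 were at least 2-fold higher, at a median of 0.62. Dendritic cell genes were higher in 7 of 25 cases and lower in 0, led by Irf4, Itgax and Cd209d (4.73, 6.75 and 18.2 FPKM). Clec9a, a receptor of cross-presenting dendritic cells, lay just within 2-fold on the lower side, at 9.30, 11.5 and 4.24 FPKM.

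T cell genes as a list lay near control, with 2 of 27 at least 2-fold higher and 1 lower, both shares below those of all genes. The 2 higher genes were the CD3 chains Cd3d (9.04, 46.9 and 24.3 FPKM) and Cd3g (15.5, 54.0 and 37.1 FPKM), while their partner Cd3e lay within 2-fold at 11.9, 4.76 and 16 FPKM. In the related list of helper T cell genes 6 of 27 were higher and 1 lower. Tnfrsf9, a costimulatory receptor also called 4-1BB, had 1.09 FPKM in control lung, 3.91 with PM10 and 12.6 with OVA+PM10. The checkpoint receptor Tigit had 1.33, 0.270 and 9.11 FPKM, Tnfrsf4, which encodes OX40, had 0.688, 1.08 and 5.12, and Pdcd1, which encodes PD-1, had 0.451, 0.986 and 3.41. Each was highest in the OVA+PM10 library. Other receptors of activated T cells lay within 2-fold, among them Icos (1.14 against 2.83 FPKM), Ctla4 (0.576 against 1.46 FPKM), Lag3 (1.11 against 3.11 FPKM) and Il2ra (1.41 against 1.53 FPKM). Foxp3, the lineage factor of regulatory T cells, lay within 2-fold at 0.568 against 1.09 FPKM. Lef1, a factor of naive T cells, was lower at 5.62 against 1.61 FPKM. Of 17 genes of natural killer and cytotoxic cells 0 passed 2-fold in either direction. Granzyme A, Gzma, had 82.8 FPKM in control lung, 374 with PM10 and 70.5 with OVA+PM10, so the higher level with particles alone was not seen with allergen and particles.

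Interferon-stimulated genes moved little as a list. Of 41 measured 7 were at least 2-fold higher and 2 lower (median 0.25). Irf7, a master regulator of the type I response, had 14.0 FPKM in control lung, 18.3 with PM10 and 57.4 with OVA+PM10, Mx1, an antiviral GTPase, had 0.284, 0.437 and 3.35, and Isg20, a nuclease that plasma cells also express, had 35.3, 73.5 and 104. The 2 lower members were GTPases of resistance to intracellular pathogens, Iigp1 with 52.0, 13.9 and 23.0 FPKM and Gbp7 with 27.6, 13 and 9.87. Gbp2, Gbp3, Gbp4, Gbp5 and Gbp6 had ratios between -0.91 and -0.27, all below 0 and within 2-fold, whereas a further such GTPase, Tgtp1, was higher with 3.33, 1.07 and 7.69. Ifng itself was at 0.478, 1.09 and 1.06 FPKM.

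Genes of motile cilia were higher across most of the list. Of 39 measured ciliated cell genes 32 lay at least 2-fold above control and 0 below, with a median of 1.69, and removal of the length trend left 32 higher at a median of 1.55. Foxj1, the transcription factor that drives motile cilia, had 13.6 FPKM in control lung, 16.5 with PM10 and 70.6 with OVA+PM10. Mcidas and Ccno, which act in the making of many basal bodies in a cell, had 0.10, 0.127 and 1.89 and 0.725, 2.73 and 6.24 FPKM. The long dynein heavy chains Dnah5 and Dnah9 had 1.82, 1.44 and 8.99 and 1.35, 0.871 and 6.56 FPKM, and Hydin, of the central pair, had 1.17, 0.318 and 6.15. Short members such as Rsph1 (14.3, 56.8 and 81.1 FPKM), Meig1 (3.70, 20.5 and 35.2 FPKM) and Dynlrb2 (42.0, 250 and 201 FPKM) were high in both exposed libraries. Long and short cilium genes were thus both higher in the OVA+PM10 library, and in the PM10 library the long ones lay near or below control. The tubulin-binding Tppp3 and the adaptor Mlf1 lay within 2-fold at 396, 419 and 416 and 35.9, 27.0 and 39.0 FPKM.

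**Figure D5:**
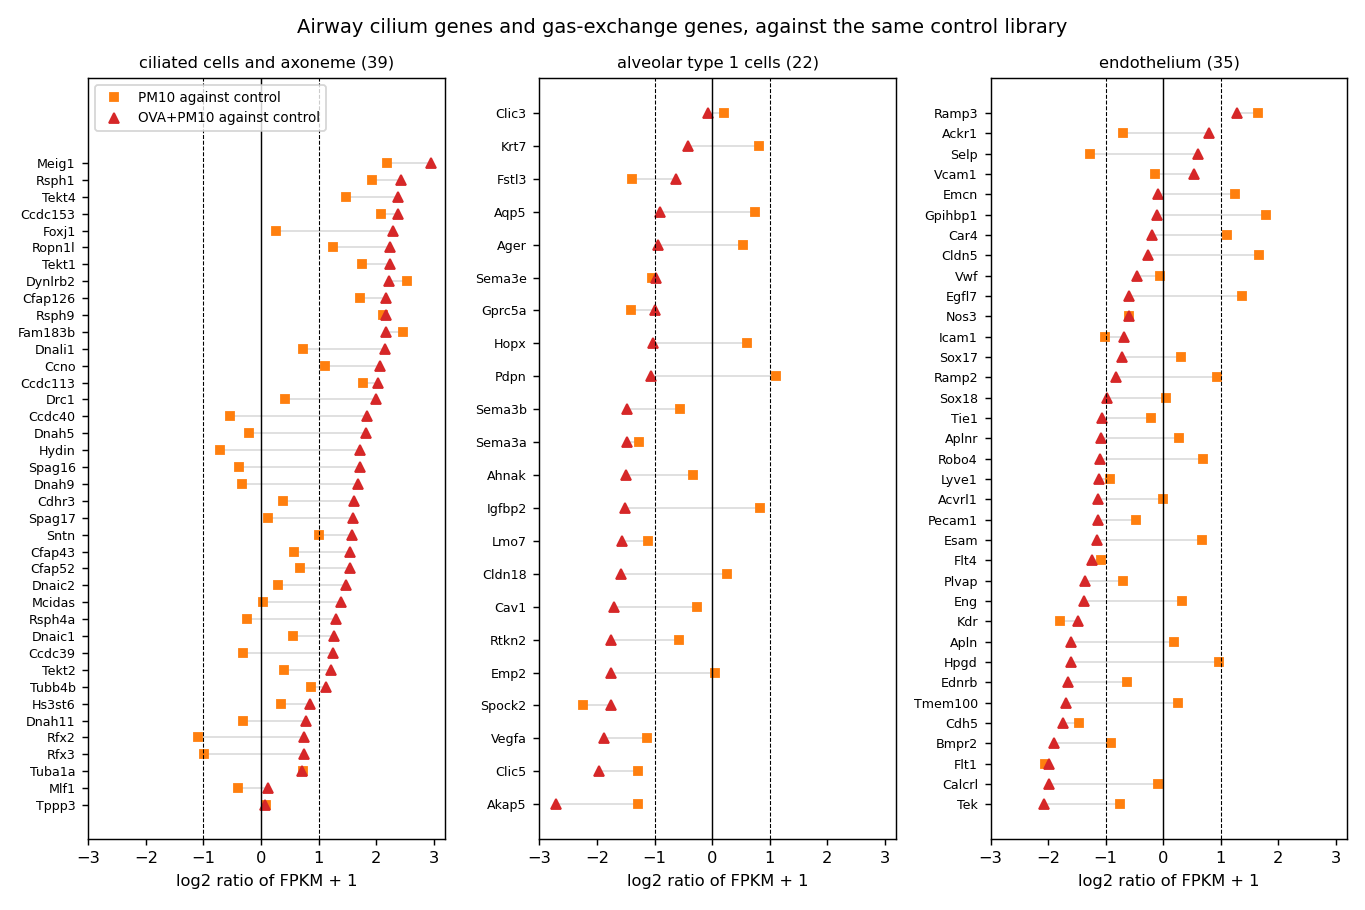
Log2 ratio of FPKM + 1 against the same control library for each measured ciliated cell, alveolar type 1 cell and endothelial gene, with OVA+PM10 as red triangles and PM10 as orange squares; dashed lines mark 2-fold. In the OVA+PM10 library all 39 cilium genes lie above 0 and all 22 alveolar type 1 genes lie below it.

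Secretory airway genes went in both directions. Of 27 club and secretory cell genes 12 lay at least 2-fold above control and 3 below (median 0.81, or 0.29 with 9 higher and 4 lower after removal of the length trend). Scgb3a1, a secretoglobin of larger airways, had 307 FPKM in control lung, 103 with PM10 and 1420 with OVA+PM10. Lypd2, a surface protein of secretory cells, had 46.7, 60.5 and 489 FPKM, and the lectin Reg3g had 41.5, 1.2 and 330. Bpifb1 and Bpifa1, related secreted defence proteins, went opposite ways, with 32.1, 0.619 and 380.5 and 283, 5.08 and 18.7 FPKM. Bpifa1 is the main secreted protein of upper airway epithelium. Fmo2, a monooxygenase of the distal lung, had 174, 34.8 and 53.8 FPKM. Chia1, the acidic chitinase of airway and alveolar epithelium, had 71.6, 95.0 and 1924 FPKM. Cell cycle genes were higher in 35 of 50 cases and lower in 0 (median 1.24, against 0.06 for the PM10 library). The proliferation marker Mki67 had 3.47, 3.66 and 16.8 FPKM, the survivin gene Birc5 had 3.15, 10.00 and 26.1, the ribonucleotide reductase subunit Rrm2 had 2.80, 2.93 and 18, and the mitotic kinase Plk1 had 1.34, 0.306 and 9.18. Removal of the length trend left 36 of 50 higher, and scaling to the same sum 21 of 50 at a median of 0.88, while a pseudocount of 5 FPKM gave a median of 0.74. Which cells divided is not given by these bulk values.

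Genes of the gas-exchange surface were lower as groups. Of 22 alveolar type 1 cell genes 0 lay at least 2-fold above control and 15 below (median -1.49), and of 35 endothelial genes 1 was higher and 20 lower (median -1.10, against -0.06 for the PM10 library). After removal of the length trend 18 of the 22 and 19 of the 35 were at least 2-fold lower. Akap5, a kinase anchor protein of type 1 cells, had 76.9 FPKM in control lung, 30.9 with PM10 and 11 with OVA+PM10. The chloride channel protein Clic5 had 170, 69.3 and 42.7 FPKM, Vegfa, the growth factor on which capillaries depend, had 110, 49.7 and 29.1, and the tight junction protein Cldn18 had 167, 199 and 55.0. Ager, the most abundant type 1 marker, lay just within 2-fold at 1228, 1777 and 639 FPKM. Members thus differed in degree, and all 22 were below control.

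Receptors were among the endothelial genes lowest against control. Tek, the angiopoietin receptor, had 110, 65.1 and 25.5 FPKM, and the BMP receptor Bmpr2, whose loss is known in pulmonary hypertension, had 90.4, 47.4 and 23.4. Calcrl, the adrenomedullin receptor, had 151, 142 and 37.1 FPKM. The junction cadherin Cdh5 had 265, 94.9 and 78.8 and Pecam1 had 308, 221 and 139. Vcam1 (16.5, 14.9 and 24.5 FPKM) and Selp (1.51, 0.042 and 2.81 FPKM), adhesion molecules of inflamed vessels, and Ackr1 (2.97, 1.43 and 5.91 FPKM), a marker of venules, lay above control within 2-fold. The capillary lipase anchor Gpihbp1 (183, 634 and 170 FPKM) and the junction protein Cldn5 (265, 838 and 221 FPKM) lay within 2-fold of control. Ramp3, a partner of Calcrl, was the 1 higher gene, with 3.60, 13.4 and 10.2 FPKM. Of 25 genes of alveolar type 2 cells 3 were higher and 1 lower (median -0.17), the higher ones being Chia1, Muc1 and Sftpd. Sftpd, surfactant protein D, had 588, 2228 and 1200 FPKM, Sftpb 1383, 1279 and 895, and Etv5, a factor that maintains type 2 cells, 41.0, 40.8 and 19.7.

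Connective tissue genes had a median near 0. Of 47 fibroblast and matrix genes 5 lay at least 2-fold above control and 11 below (median 0.03). Collagen I and III chains were higher, with Col1a1 at 52.5 FPKM in control lung, 13.1 with PM10 and 135 with OVA+PM10 and Col3a1 at 116, 60.7 and 243. The protease inhibitor Timp1 had 3.98, 16.9 and 43.1 FPKM. Basement membrane collagen Col4a2 was lower at 85.5, 37.4 and 41.9 FPKM, and so were the proteoglycans Lum (38.6, 1.38 and 5.22 FPKM) and Dcn (246, 8.4 and 91.8 FPKM) and the receptor Pdgfra (50.5, 22.0 and 17.3 FPKM). Of 26 smooth muscle and pericyte genes 1 was higher and 9 lower (median -0.31). The higher one was smooth muscle actin, Acta2, with 82.8, 32.0 and 202 FPKM. Lower ones included the pericyte gene Ndufa4l2 (43.2, 14.4 and 8.24 FPKM) and desmin, Des (199, 39.6 and 71.4 FPKM). The tropomyosins Tpm1 (507, 149 and 187 FPKM) and Tpm2 (196, 28.4 and 68.1 FPKM) were lower as well. Skeletal muscle genes were also nearly confined to the control library, and the part of that tissue in Des, Tpm1 and Tpm2 was not tested.

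Secretory pathway genes were also higher. Of 44 genes of the endoplasmic reticulum 22 were at least 2-fold higher and 0 lower (median 0.96), or 16 and 0 with the length trend removed. Creld2 and Sdf2l1, chaperone partners, had 28.9, 62.0 and 149 and 20.9, 32.0 and 109 FPKM, and Edem1, which clears misfolded glycoproteins, had 14.4, 13.1 and 53.4. Xbp1, the transcription factor of secretory capacity, had 106, 130 and 252 FPKM. Ddit3 (25.9, 71.3 and 21.9 FPKM) and Atf4 (56.1, 92.0 and 48.9 FPKM), of the stress branch that can end in cell death, lay within 2-fold of control. Higher folding genes were thus seen without higher Ddit3.

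Genes that particles are known to induce were less distinct. Of 14 targets of the aryl hydrocarbon receptor 3 were higher and 0 lower (median 0.00), and Cyp1a1 had 2.25 FPKM in control lung, 7.21 with PM10 and 2.19 with OVA+PM10. Of 37 genes of the NRF2 oxidative stress response 8 were higher and 0 lower (median 0.51, which becomes -0.13 on scaling to the same sum, where all genes have -0.58). With the length trend removed 3 of 37 were higher, at a median of 0.31. The pentose phosphate enzyme Tkt had 44.7, 108 and 136 FPKM and glutathione reductase, Gsr, had 19.7, 16.3 and 58.3, while Hmox1 (22.0, 31.1 and 32.8 FPKM) and Nqo1 (8.08, 4.25 and 5.39 FPKM) lay within 2-fold. Glucocorticoid-responsive and clock genes were lower in 6 of 26 cases and higher in 2 (median -0.48). Zbtb16 had 13.1, 1.62 and 2.56 FPKM, Tsc22d3 had 120.0, 98.7 and 46.1, and Pdk4 had 9.87, 2.26 and 0.921. Sources used here do not give the hour at which lungs were taken.

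Genes of tissues other than lung were frequent among the lowest ratios, where 7 of 20 were in the squamous list and 3 in the skeletal muscle list. The 20 genes with the lowest ratios among those with at least 5 FPKM had 170 to 2574 FPKM in the control library. They had at most 2.28 FPKM in the OVA+PM10 library and 8.3 in the PM10 library, so all 20 were lower by 2-fold or more with PM10 alone too. Both ratios share the control library in which these genes were picked as high, so this agreement was partly fixed in advance. They included Krt13 and Krt4, keratins of stratified squamous epithelium, at 2574 and 1171 FPKM in control lung, and the fast muscle genes Tnnc2, Acta1 and Mylpf at 989, 966 and 676. Squamous genes were lower in 27 of 29 cases and skeletal muscle genes in 22 of 24. Against the share in control lung given above, both lists together made up 0.0226% of the summed FPKM of the OVA+PM10 library. In the PM10 library squamous genes made up 0.0052% and skeletal muscle genes 0.0034%, so the control library stood apart from both others. Basal cell genes were lower with OVA+PM10 too, in 8 of 8 cases. Krt5, which squamous epithelium shares, had 163 FPKM in control lung, was listed at 0 with PM10 and had 0.030 with OVA+PM10. Dapl1 of the same list was not confined to control lung, at 16.7, 27.4 and 3.47 FPKM. Leaving out 6 lists of other tissues left 1373 higher and 1135 lower genes, so that 69 of the 1204 lower genes belonged to them. Genes of these tissues outside the lists were not counted, and the part of tissue make-up in the other lower genes was not tested.

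Ribosomal protein genes were higher in 41 of 49 cases and lower in 0 (median 1.28), and so were the short transcripts among which most of them fall. With the length trend removed 14 of 49 were higher at a median of 0.73. Nuclear genes of oxidative phosphorylation were higher in 12 of 42 cases, or 2 of 42 with the trend removed. The PM10 library had higher medians in both lists, 2.16 and 1.32. In the cilium, cell cycle, plasma cell and interleukin-13-responsive lists the counts of higher genes with the trend removed were 32 of 39, 36 of 50, 11 of 13 and 20 of 26.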

How the data were processed

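RNA was extracted with Trizol from whole lung and sequenced from libraries made with a directional kit, per the labels' protocols. The submitters' processing notes name TopHat and the genome build mm10. The deposited tables give 1 value per gene symbol and library, taken here as FPKM computed by the authors. No count was given, so depth was estimated from the smallest steps between low values and transcript lengths. The 3 tables were joined on symbol. The log2 ratio of FPKM + 1 was taken for genes with at least 1 FPKM in either library, and genes with a ratio of at least 2-fold are called higher or lower. The pseudocount understates the change of low genes. No p-value, interval or standard error can be had from 1 library a group. Transcript lengths and positions came from GENCODE M21 and promoters from RefSeq, both on GRCm38. The calculation was tested on simulated data. Python 3.11.15, numpy 2.4.6, pandas 2.3.3 and matplotlib 3.10.9 were used.

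The members and gene lists were chosen with earlier results of these data known. The rule for named genes took the 20 highest and 20 lowest ratios among genes with at least 5 FPKM, leaving out predicted genes, up to 6 members with the largest ratios and the 2 most abundant of each list, a set of markers, and the 10 most abundant genes. Other genes named were chosen after their values were seen. Sources used here do not say whether counting used strand, and values of overlapping genes are uncertain. Alternatives were 2 other pseudocounts, 2 filters, 2 fold thresholds, 3 scalings, leaving out other-tissue lists and removing the length trend. A few genes are not reported here.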

Additional observations from a re-analysis of the deposited data

How the results depend on the processing

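In place of 1381 higher and 1204 lower genes, a pseudocount of 5 FPKM gave 694 and 524, a 1.5-fold threshold 2853 and 2451, a 4-fold threshold 207 and 276, and scaling to the same sum 643 and 3458. Scaling by the median ratio (1364 and 1213) or the upper quartile (1433 and 1152), a pseudocount of 0.25 FPKM (1709 and 1520) and a minimum of 5 FPKM (1094 and 912) moved both counts by less than 1.5-fold. Of 48 list medians, none passed 2-fold in the opposite direction under the alternatives run for them. List medians of up to 0.55, all within 2-fold, changed sign under some settings, among them mast cell, T cell, interferon-stimulated and NRF2 genes. On scaling to the same sum, where all genes have a median of -0.58, arginine and eicosanoid genes went from 0.55 to -0.01. Matrix protease genes went from 0.55 to -0.05 there. Medians no longer past 2-fold numbered 8 with a pseudocount of 5 FPKM (goblet, eosinophil, type 2 chemokine, class II, endothelial, cardiac, adipose and cell cycle genes), 5 on scaling to the same sum (goblet, type 2 chemokine, class II, cell cycle and ribosomal genes), 3 with no filter (goblet, cardiac and adipose genes) and 2 with the length trend removed (class II at 0.62 and ribosomal genes at 0.73). Of 353 named genes 61 were no longer past 2-fold on scaling to the same sum and 50 with a pseudocount of 5 FPKM, as were 42 of 351 with the length trend removed. No paired analysis was possible because each group has 1 library. No replicate could be left out for the same reason. At the estimated depths 1 read on a transcript of 1 kb is worth 0.0507 FPKM in control lung and 0.0667 with OVA+PM10, so values listed at or near 0 rest on few reads.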
